A study of Mus musculus with 6 samples.

Results

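Kcnq3 and Kcnq5 encode subunits of the potassium channels that carry the M-current, and they are 2 of the 29547 rows of the deposited expression table. They were taken by gene name, after earlier results of the same comparison (CS against Con) were known. Their difference between the groups is therefore given as a description, without a test. Levels of one gene against another within a library, and the differences of genes other than Kcnq3 and Kcnq5, did not choose them and were tested. The lists of other genes were also chosen with earlier results of these data known, so their tests are not independent of those results.

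The samples were vBNST tissue of mice, the ventral part of the bed nucleus of the stria terminalis in the extended amygdala, from a study of unpredictable threat in which the tissue was collected 90 min after the animals met the CS+ or the CS- test. Ribosomes were pulled down with an antibody against the phosphorylated form of the ribosomal protein S6, a mark of recently active neurons, and the RNA was depleted of rRNA and sequenced in stranded libraries. The labels name 3 libraries Con and 3 CS. They do not state which test the CS libraries followed or what the Con mice received, and the sources used here leave out strain, sex, age, genotype and the number of mice per library. Nor do they say whether each library had its own mice, so a p-value here speaks of the spread among these 6 libraries, and that spread may be technical. None of the libraries is input RNA, and Malat1, a noncoding RNA of the nucleus, held between 2.83% and 5.74% of the reads of a library.

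The M-current is a slow, non-inactivating potassium current that opens near the resting potential and restrains repetitive firing. The channels are assembled from 4 subunits. Kcnq3 carries little current alone and joins other subunits of its family, while Kcnq5 joins Kcnq3 or forms channels by itself. The channels need the membrane lipid PIP2 and calmodulin to open, and receptors coupled to Gq, such as the M1 muscarinic receptor, close them by activating phospholipase C, which consumes PIP2. Ankyrin-G holds Kcnq3 at the axon initial segment, where action potentials start. Kcnq1 is a cardiac and epithelial relative and was not analysed here.

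The table holds RPKM, reads scaled to the length of a row and to the assigned reads of a library. Assigned reads ran from 765769 to 2342686 per library, and the Con libraries were on average the shallower ones. The deposited values of the median row lay 0.37 higher on the log2 scale in CS than in Con, so each difference is given on 2 scales, as deposited and after subtracting each library's median deviation (median scaling). The files do not say which scale is the right one. In the bulk libraries fewer cells that contain a transcript and less of it per cell cannot be told apart. Levels are those of the pulled-down RNA, with no input RNA beside them, and are not levels of the whole tissue. Values of single libraries are given in the order of library 1, 2 and 3 of a group. All log2 differences are CS minus Con of log2(RPKM + 0.1).

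Kcnq3 RNA was lower in every CS library than in every Con library, on both scales. Its row lies on chromosome 15 (GRCm38, 65986387 to 66286224, minus strand) and merges exons of 14290 bases. As deposited, its level was 9.14, 8.45 and 7.69 RPKM in Con, and 3.86, 3.64 and 5.47 RPKM in CS. The 2 groups did not overlap, and CS library 3 was the highest of its group. These levels rested on 100, 145 and 157 reads in Con and 87, 71 and 183 reads in CS. The exact Poisson 95% interval was 7.44 to 11.1 RPKM in Con library 1 and 4.70 to 6.32 RPKM in CS library 3, the highest of each group. Such intervals cover counting error only.

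The mean level of Kcnq3 was 8.43 ± 0.722 RPKM in Con and 4.32 ± 0.998 RPKM in CS as deposited (SD, n = 3 per group), a ratio of 1.95. After median scaling the means were 9.52 ± 0.82 and 3.75 ± 0.69 RPKM, a ratio of 2.54. The log2 difference was -1.34 ± 0.23 (SE) with median scaling and -0.97 ± 0.26 as deposited. Of all 20550 rows tested, those with a mean of at least 0.5 RPKM, 15.4% had CS libraries wholly below Con with median scaling and 6.5% as deposited. Of the 10463 rows with at least 60 reads, as Kcnq3 has, 14.4% did with median scaling. CS libraries wholly above Con were found for 7.57% of all tested rows with median scaling, 18.5% as deposited and 12% of the rows with at least 60 reads. Kcnq3 was chosen from this contrast, so nothing is read from its place in these shares.

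Kcnq5 RNA showed no such separation. Its row lies on chromosome 1 (GRCm38, 21398403 to 21961942, minus strand) and merges exons of 7689 bases. Its level as deposited was 2.89, 2.27 and 3.01 RPKM in Con and 2.31, 3.52 and 1.499 RPKM in CS. CS library 2 was the highest and CS library 3 the lowest of all 6, so the Con values lay inside the range of the CS values. The reads were few, 17, 21 and 33 in Con and 28, 37 and 27 in CS. The exact Poisson 95% intervals of CS library 2 (2.48 to 4.86 RPKM) and CS library 3 (0.99 to 2.18 RPKM) did not meet, so the 2 libraries of 1 group differed by more than counting error.

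The log2 difference of Kcnq5 was -0.59 ± 0.44 (SE) with median scaling and -0.22 ± 0.41 as deposited. Mean levels were 2.72 ± 0.39 RPKM in Con and 2.44 ± 1.02 RPKM in CS as deposited (SD, n = 3 per group). Without CS library 3 the median-scaled difference was -0.26, and without CS library 2 it was -0.90. The size of the Kcnq5 difference thus moved with 1 library. Exons of Kcnq5 share 237 bases with those of Gm26580, a row of 119 reads on the opposite strand. The strand setting of the counting is unknown here, so some of the 163 reads of Kcnq5 may belong to Gm26580. No exon base of Kcnq3 was shared with another row.

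**Figure D1:**
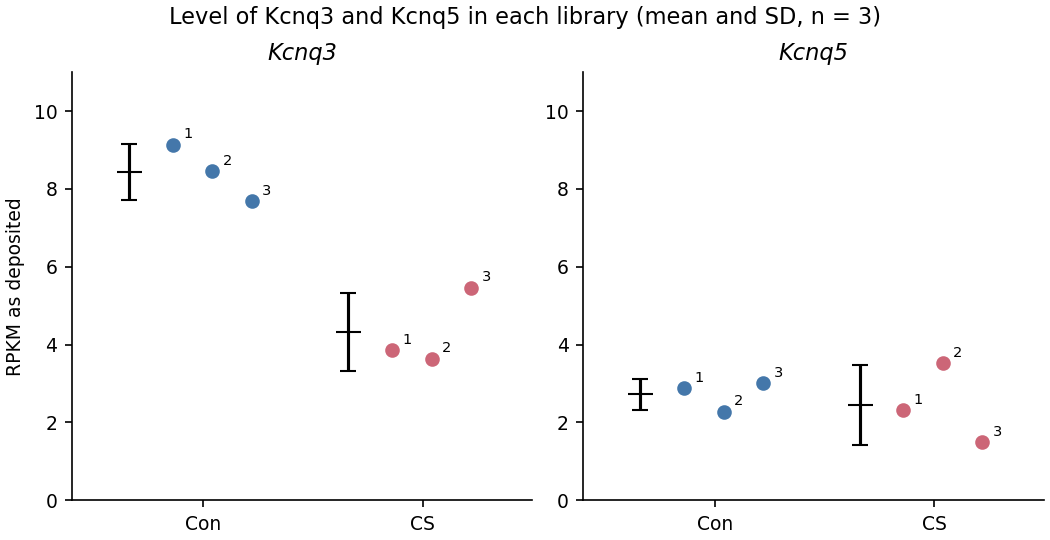
Deposited RPKM (vertical axis) of Kcnq3 and Kcnq5 in each library. Points are libraries with their replicate number, and the black mark and bar are the mean and SD of the 3 libraries of a group. Kcnq3 lies between 7.69 and 9.14 RPKM in Con and between 3.64 and 5.47 in CS, and the groups overlap for Kcnq5.

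The proportion of Kcnq5 to Kcnq3 within a library does not depend on the scaling between libraries, since both genes carry the same factor. The ratio of Kcnq5 to Kcnq3 RPKM was 0.316, 0.269 and 0.391 in Con, and 0.598, 0.969 and 0.274 in CS. CS libraries 1 and 2 lay above all Con libraries and CS library 3 lay among them, so the groups overlapped. On the log2 scale the ratio was -1.64 ± 0.27 in Con and -0.88 ± 0.92 in CS (SD, n = 3 per group), a difference of 0.75 ± 0.55 (SE).

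Of the summed Kcnq3 and Kcnq5 reads, Kcnq5 held 14.5% (95% exact binomial interval 8.7 to 22.2%), 12.7% (8.0 to 18.7%) and 17.4% (12.3 to 23.5%) in Con. In CS it held 24.3% (16.8 to 33.2%), 34.3% (25.4 to 44.0%) and 12.9% (8.65 to 18.2%). The intervals of CS library 2 and CS library 3 did not meet, while that of CS library 1 overlapped those of all 3 Con libraries.

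The summed level of both genes was lower in every CS library, as Kcnq3 makes up most of it. It was 12.03, 10.7 and 10.7 RPKM in Con and 6.16, 7.16 and 6.97 RPKM in CS as deposited. The means were 11.1 ± 0.759 and 6.76 ± 0.53 RPKM (SD, n = 3 per group), a difference of -4.39 ± 0.53 RPKM (SE). With median scaling the sum was 12.6 ± 1.37 RPKM in Con and 5.90 ± 0.436 RPKM in CS. The sum inherits the choice of Kcnq3 and has no test.

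**Figure D2:**
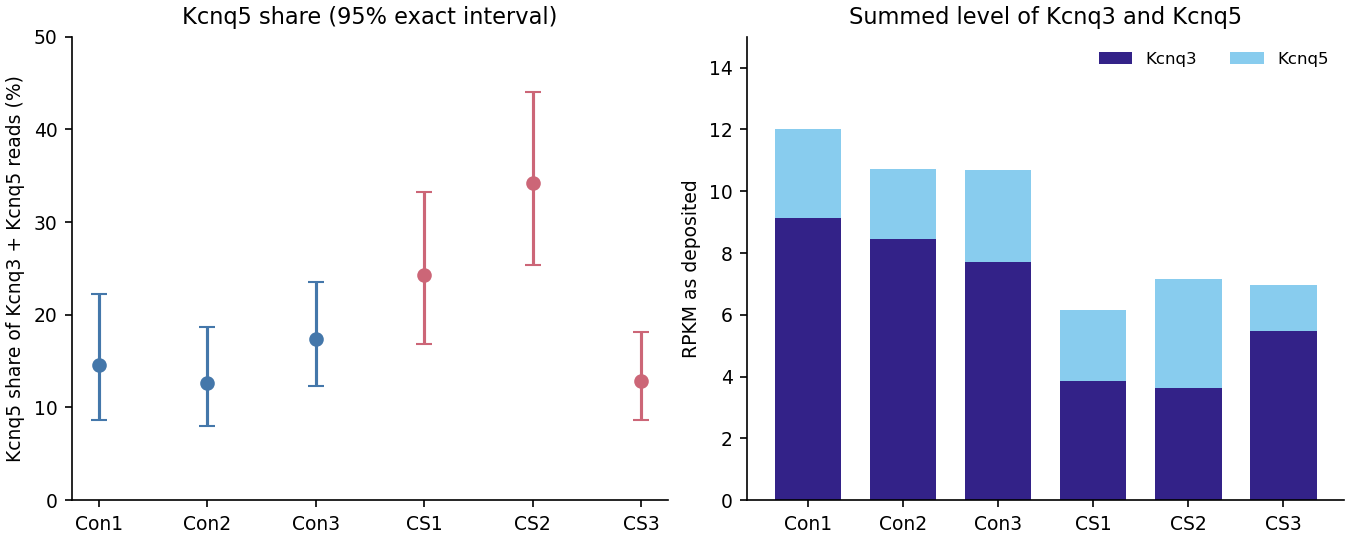
Left, the share of Kcnq5 (vertical axis, percent) among the Kcnq3 and Kcnq5 reads of each library, with 95% exact binomial intervals. Right, deposited RPKM of Kcnq3 and Kcnq5 stacked for each library. The Kcnq5 share lies between 12.7% and 17.4% in Con and between 12.9% and 34.3% in CS, and the stacked sum lies between 10.7 and 12.03 RPKM in Con and between 6.16 and 7.16 RPKM in CS.

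Across all 6 libraries Kcnq3 had the higher level per length, 6.37 ± 2.38 RPKM against 2.58 ± 0.71 RPKM for Kcnq5 as deposited (SD, n = 6). The levels were compared within libraries by an exact two-sided sign-flip permutation test on log2(RPKM + 0.1), with p-values adjusted over the 3 pairs of Kcnq genes compared. Kcnq3 was above Kcnq5 in 6 of 6 libraries, by 1.23 ± 0.71 (SD, exact permutation p = 0.0312, the smallest that 6 libraries allow, adjusted p = 0.0469). With 1 library left out the difference was 1.10 to 1.46, and 5 libraries cannot give an exact permutation p below 0.0625. Row lengths merge the exons of every annotated transcript, so levels per length depend on the annotation.

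The Kcne genes encode single-pass accessory subunits that bind Kcnq channels and change their gating. All 5 had few reads: Kcne1 6 in Con and 7 in CS, Kcne2 6 and 9, Kcne3 2 and 0, Kcne4 4 (all in Con library 2) and 0, and Kcne1l, also named Kcne5, 0 and 8. Kcne2 was tested and did not pass (limma adjusted p = 0.91). Kcne1l reached the level tested only through its reads in CS, so its test is not read here. With the empty group set to a floor of 3 reads in all, the ratio per assigned read was 1.71 for Kcne1l (CS over Con). For Kcne4 it was 2.08 (Con over CS) and rested on Con library 2 alone. These ratios leave out the counting error of so few reads, so no direction is read from them.

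To place the 2 genes in their pathway, the Kcne genes and 6 further lists were described. Besides Kcnq3 and Kcnq5 they hold 92 genes with a row, of which 77 were tested. A gene was called at a limma p of 0.05 or less after Benjamini-Hochberg adjustment over all 20550 rows. Only 1 of the 77 genes passed, Pip4k2c, which was lower in CS, against 0.968% of all rows called in either direction, 0.175% higher and 0.793% lower. At an unadjusted p under 0.05 there were 4 genes higher (5.19%) and 6 lower (7.79%), against 3.77% and 8.77% of all rows. Limma voom, which models the reads recovered from the RPKM values and their counting error, was run beside it on rows with at least 60 reads. With library totals it called 5.02% of these rows, 2.6% higher and 2.42% lower, and 4 of the pathway genes higher and 1 lower. With median scaling it called 6.43% of the rows, 0.268% higher and 6.16% lower, and 0 of the pathway genes higher and 2 lower. At an unadjusted p under 0.05 voom with median scaling had 7 of 63 pathway genes higher and 7 lower (11.1% each), against 4.29% and 15.1% of its rows. With library totals voom had 24 of 63 higher (38.1%) and 2 lower (3.17%), against 22.6% and 7.87% of its rows. The limma estimates were above 0 for 48 genes and below 0 for 29, against 10685 and 9865 of all tested rows. The median was 0.13 against 0.03 for all tested rows. As deposited the medians were 0.50 and 0.41.

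PIP2 itself was not measured. Pip4k2c encodes a member of the kinase family that makes PIP2 from the phosphatidylinositol 5-phosphate pool. Its level as deposited was 15.9, 18.5 and 17.6 RPKM in Con and 9.95, 8.47 and 8.86 RPKM in CS, with no overlap. On that scale 6.5% of all tested rows had CS wholly below Con. It fell by 1.30 ± 0.18 (SE) on the log2 scale with median scaling (limma adjusted p = 0.0347). As deposited it had -0.92 and did not pass (limma adjusted p = 0.101), and leaving out any 1 library also ended the limma call (adjusted p between 0.0602 and 0.137), with estimates between -1.37 and -1.23. By voom it was lower with median scaling and with library totals (limma voom adjusted p = 0.00685 and 0.0417). Voom with median scaling without each library in turn, added after seeing the data, also called it (adjusted p between 0.0040 and 0.0395). The smallest of these, without Con library 1, came with a larger SE than all 6 libraries gave (0.32 against 0.22). These p-values are therefore not read as support for the call.

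In the other enzymes that make or remove PIP2 the estimates were mixed, 9 of 16 tested genes above 0 and 7 below, with a median of 0.08. Synj1, the synaptic phosphatase synaptojanin, had a log2 difference of -0.91 ± 0.19 (SE) and did not pass by limma (adjusted p = 0.0954). By voom with median scaling it was lower (adjusted p = 0.0171). Inpp5b, a further phosphatase of PIP2, had -0.94 ± 0.29 (limma adjusted p = 0.237). Ocrl, a phosphatase that removes PIP2, had 0.89 ± 0.35 (limma adjusted p = 0.374) and was higher by voom with library totals (adjusted p = 0.0449). The kinases of the main route to PIP2, Pi4ka and Pip5k1c, had 0.07 and 0.10 and were not called by limma or voom.

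Proteins that bind or regulate M-channels directly, calmodulin, the anchor Akap5, kinases and others, had estimates above 0 in 15 of 15 tested genes, with a median of 0.29 (0.66 as deposited, against 0.03 and 0.41 for all tested rows). With quantile normalization and with the length trend removed 15 of 15 were also above 0, and by voom with median scaling 14. Of all 20550 tested rows 10685 were above 0 with median scaling and 13648 as deposited. The numbers were 11584 with quantile normalization and 11420 with the length trend removed, and 5735 of 10463 rows by voom with median scaling. All settings use the same libraries. None was called by limma (1 higher at an unadjusted p under 0.05) or by voom with median scaling, and 2 were higher by voom with library totals. The 2 were calmodulin genes. Calm3 had 269 ± 41.1 RPKM in Con and 493 ± 50.8 RPKM in CS as deposited (SD, n = 3 per group; median-scaled log2 difference 0.51 ± 0.15 SE, limma adjusted p = 0.23; voom with library totals, adjusted p = 0.0226). Calm2 had 403 ± 83.0 and 681 ± 67.9 RPKM (0.40 ± 0.17, limma adjusted p = 0.419; voom with library totals, adjusted p = 0.0403). Akap5 had 0.53 ± 0.29 with overlapping groups after median scaling.

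Of the receptors coupled to Gq, 9 of 14 tested genes had an estimate below 0 and 5 above (median -0.28). As deposited 8 were above 0 and 6 below (median 0.09), and none was called by limma (0 higher and 2 lower at an unadjusted p under 0.05). Chrm1, which encodes the M1 muscarinic receptor, had 2.67 ± 0.17 RPKM in Con and 2.72 ± 0.45 RPKM in CS as deposited. Its log2 difference was -0.36 ± 0.30 with median scaling and 0.02 as deposited. Htr2c, a serotonin receptor, had -0.48 ± 0.56. Grm5, a metabotropic glutamate receptor, had 4.06 ± 1.54 RPKM in Con and 5.82 ± 0.538 RPKM in CS, with overlapping groups (0.21 ± 0.31, limma adjusted p = 0.814).

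Downstream of these receptors, 2 of the 5 tested genes for Gq proteins and phospholipase C beta had an estimate above 0 and 3 below, while as deposited, with quantile normalization and with the length trend removed 4 were above 0. Plcb4 had 3.63 ± 0.271 RPKM in Con and 7.36 ± 0.0448 RPKM in CS as deposited, with no overlap, as had 18.5% of all tested rows in that direction. Its median-scaled log2 difference, 0.63 ± 0.21, did not pass (limma adjusted p = 0.288), and voom called it higher with library totals (adjusted p = 0.0347). Plcb3 had 0.42 ± 0.28. Gnaq, which encodes the alpha subunit of Gq, had -0.38 ± 0.37, and -0.01 as deposited.

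At the axon initial segment and node of Ranvier 13 of 20 genes had an estimate above 0 and 7 below (median 0.11). As deposited 18 were above 0 and 2 below (median 0.48, against 0.41 for all tested rows). None was called by limma (0 higher and 1 lower at an unadjusted p under 0.05) or by voom on either scale. The potassium channel gene Kcna2 had -0.79 ± 0.31 and the sodium channel gene Scn1a 0.51 ± 0.28 (limma adjusted p = 0.374 and 0.534). Kcna2 was called lower by voom with the replicate number as a block (adjusted p = 0.0374) and by voom without Con library 1 (adjusted p = 0.0464). Fgf13, which binds sodium channels, had 2.84 ± 0.384 RPKM in Con and 5.17 ± 0.39 RPKM in CS as deposited, with no overlap (median-scaled 0.47 ± 0.27, limma adjusted p = 0.548). On the deposited scale 18.5% of all tested rows had CS wholly above Con. Ank3, which encodes ankyrin-G, had 9.98 ± 1.57 RPKM in Con and 15.8 ± 1.13 RPKM in CS as deposited but did not pass (median-scaled 0.30 ± 0.18, limma adjusted p = 0.556).

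Of 4 tested regulators of Kcnq gene transcription none was called by limma (0 at an unadjusted p under 0.05) or by voom on either scale. Sp1, an activator, had 0.56 ± 0.51 on 168 reads. Rest, a repressor, had 0.87 ± 1.13 on 76 reads, and Nfatc3 had -1.13 ± 0.53 with overlapping groups. Nfatc3 was called lower by voom with the replicate block (-1.09, adjusted p = 0.000115), without Con library 1 (-1.58, adjusted p = 0.000394) and without CS library 1 (-1.59, adjusted p = 0.00304). These fits were added after seeing the data. Limma with the same block did not call it (adjusted p = 0.705), with an SE of 0.59 against 0.23 by voom. Voom on all 6 libraries without the block did not either (adjusted p = 0.185), so Nfatc3 is not read as changed.

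**Figure D3:**
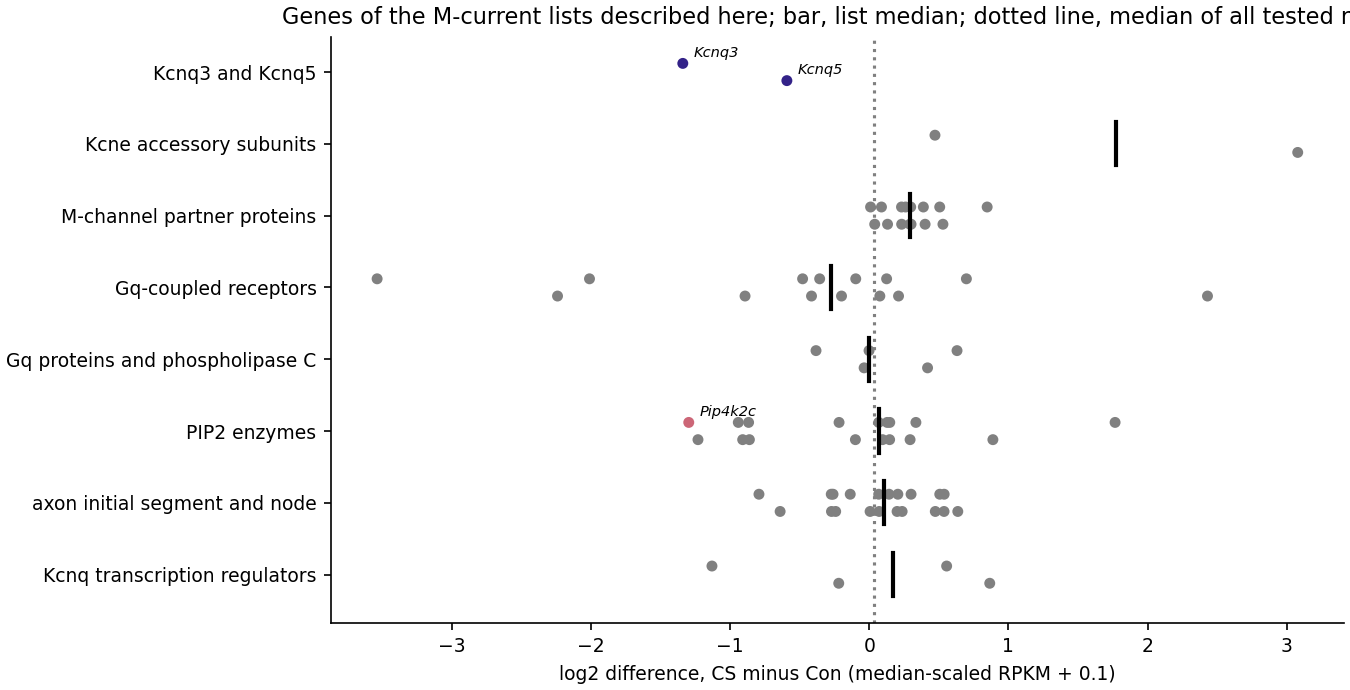
Median-scaled log2 difference, CS minus Con (horizontal axis), of each tested gene of the lists described here (rows). Blue points are Kcnq3 and Kcnq5, which have no test, the red point is Pip4k2c, called by limma, and grey points were not called by limma. Bars are list medians and the dotted line is the median of all tested rows, 0.03; Kcnq3 lies at -1.34 and Kcnq5 at -0.59.

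Genes whose pattern over the 6 libraries was most like that of each channel gene were sought among 9142 protein-coding genes with at least 60 reads. Likeness was the root mean square difference between log2 levels after subtracting each gene's own mean. Nearest to Kcnq3 were Minpp1 (0.065), an inositol phosphate phosphatase, the histone chaperone gene Nap1l1 (0.072), Upp2 (0.077), a uridine phosphorylase, Zfc3h1 (0.093), which links nuclear RNA to its decay, and Ammecr1 (0.093). All 5 separated the groups as Kcnq3 did, as the measure requires. Nap1l1 had 112, 109 and 97.4 RPKM in Con and 50.8, 51.5 and 65.2 RPKM in CS, so its CS library 3 was also the highest of its group.

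Nearest to Kcnq5 were Mepce (0.053), which caps the 7SK RNA, the homeodomain factor genes Pou3f2 (0.061) and Lhx5 (0.061), Chic2 (0.065) and Errfi1 (0.069), an inhibitor of the EGF receptor. In all 5 the highest deposited value was in CS library 2 and the lowest in CS library 3, as in Kcnq5. The libraries share their depth and composition across genes, so likeness over 6 libraries is a description of them. The genes near Kcnq3 and those near Kcnq5 are different genes.

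**Figure D4:**
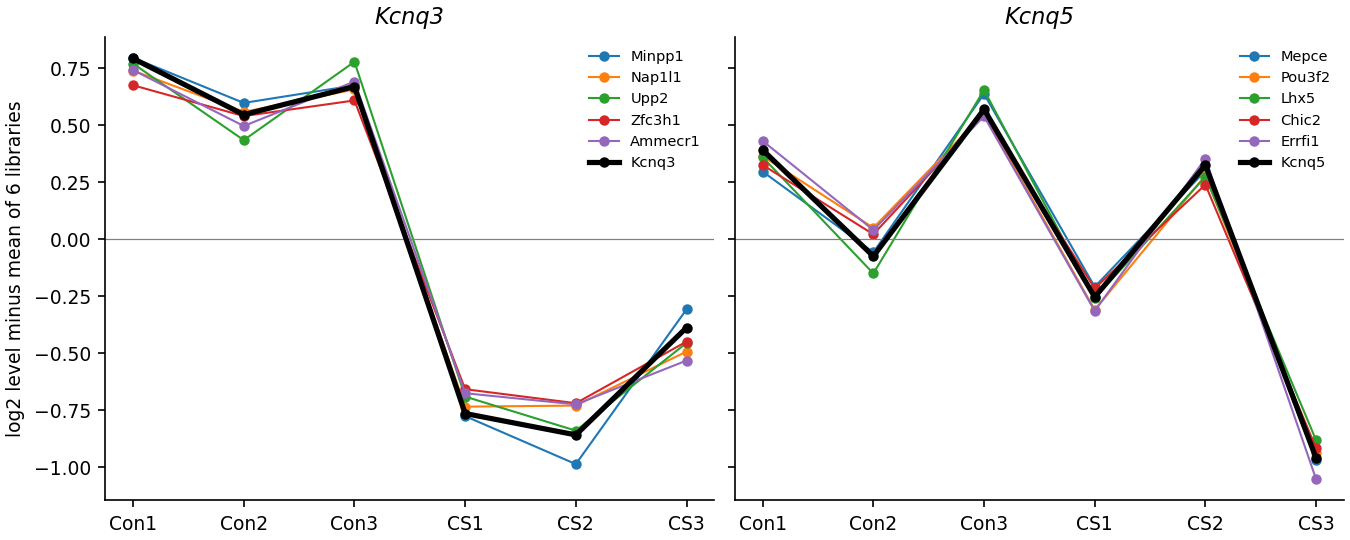
Log2 level after median scaling minus the gene's mean over the 6 libraries (vertical axis) for Kcnq3 (left) and Kcnq5 (right), in black, and the 5 protein-coding genes nearest to each, in colour. Lines join the values of 1 gene and stand for no order of the libraries. Kcnq3 and its neighbours are above 0 in the Con libraries and below 0 in the CS libraries, while Kcnq5 and its neighbours are lowest in CS library 3 and above 0 in CS library 2.

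Kcnq3 is among the long rows of the table. The 2033 rows longer than 8000 bases with at least 60 reads had a median log2 difference of 0.06 with median scaling, against -0.11 for the 609 rows of up to 1000 bases. Of these long rows 43.5% had an estimate below 0, as Kcnq3 did, against 55.0% of the short ones. The part of row length in the Kcnq3 difference was not tested. With each library's trend over row length removed, Kcnq3 had -1.29 and Kcnq5 -0.51.

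Neuronal markers were present in all libraries, and no marker of any of the 10 cell type lists was without a read over the 6 libraries. The summed median-scaled level of 10 neuronal markers was 686 to 864 RPKM in Con and 542 to 635 RPKM in CS, while 6 of the 10 had an estimate above 0 and none was called by limma (1 higher and 1 lower at an unadjusted p under 0.05). As deposited the neuronal sum was 663 to 701 RPKM in Con and 654 to 712 RPKM in CS, so the groups overlapped. Of 7 markers of GABAergic neurons, the main neuron class of the nucleus, 4 had an estimate above 0 and 3 below, and their sum was 53.8 to 63.8 RPKM in Con and 45.1 to 69.8 RPKM in CS. Of 7 oligodendrocyte markers 6 had an estimate below 0, and their sum was 75.1 to 134 RPKM in Con and 66.4 to 80.8 RPKM in CS with median scaling, and 60.9 to 129 and 80.1 to 90.7 RPKM as deposited. The sum of 8 astrocyte markers was 88.5 to 115 RPKM in Con and 88.8 to 113 RPKM in CS. The other sums, with median scaling, were 45.6 to 73.8 RPKM in Con and 13.2 to 52.0 RPKM in CS for glutamatergic markers, 264 to 422 and 226 to 326 for striatal projection neurons, at most 24.97 and 21.06 for oligodendrocyte precursors, 37.1 to 56.7 and 31.6 to 40.8 for microglia, 12.9 to 13.6 and 8.36 to 11.5 for endothelial and mural cells (10.7 to 13.2 and 10.1 to 12.9 as deposited), and 34.8 to 77.3 and 33.3 to 102 for ependymal and choroid plexus cells. Of 6 tested glutamatergic markers 5 had an estimate below 0 and 1 above (median -0.74, and -0.37 as deposited). Their deposited sum was 40.2 to 59.9 RPKM in Con and 14.7 to 58.3 RPKM in CS. Estimates below 0 were found for 7 of 8 striatal projection neuron, 5 of 7 endothelial and mural and 2 of 8 astrocyte markers. The counts were 3 of 8 for microglia and 1 of 4 each for oligodendrocyte precursors and for ependymal and choroid plexus cells. No marker of the 10 lists was called by limma, and voom with median scaling called Nefl, Lhx6, Cx3cr1 and Foxj1 lower and none higher, against 6.16% and 0.268% of its rows. With library totals voom called Uchl1, Gad1 and Penk higher and none lower, against 2.6% and 2.42%. The part of cell composition, depth and library preparation in the Kcnq3 difference was not tested.

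Kcnq3 kept its direction under all 24 alternatives tried, with log2 differences between -1.49 and -0.96. Kcnq5 also stayed below 0, between -0.97 and -0.22. Leaving out each library in turn gave -1.48 to -1.24 for Kcnq3 and -0.90 to -0.26 for Kcnq5. All alternatives reuse the libraries of the contrast that Kcnq3 was chosen from. Its groups did not overlap, so leaving out 1 library could hardly change its direction. The alternatives describe the size of the difference and are not read as support for it.

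**Figure D5:**
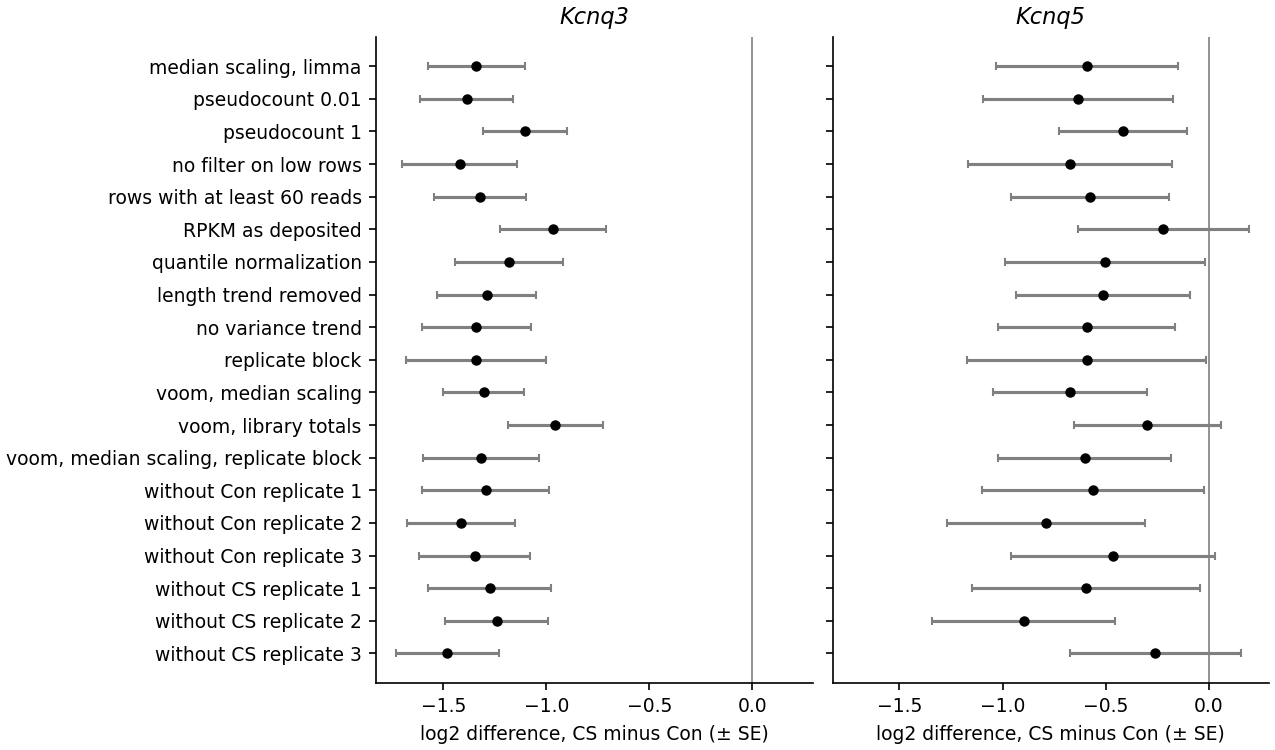
Log2 difference, CS minus Con (horizontal axis), with its SE, for Kcnq3 and Kcnq5 under each processing setting (rows; the top row is the setting used in the text, and voom without 1 library is not drawn). Kcnq3 stays below -0.95 in each, while the interval of 1 SE reaches 0 for Kcnq5 under 4 of the settings, among them RPKM as deposited.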

How the data were processed

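The submitters' processing notes name the read trimmer Trimmomatic 0.36, the read counter featureCounts, Subread 1.5.1 and the builds GRCm38 and mm10; neither aligner nor strand setting is given in the sources used here. The authors deposited RPKM values per row for 6 libraries (3 Con, 3 CS), with row lengths. Per value above 0, 100% came out as whole reads to within 0.01, from which reads and library totals were recovered. Rows with a mean of at least 0.5 RPKM were fitted with limma 3.58.1 in R 4.3.3 (eBayes with trend) on median-scaled log2(RPKM + 0.1), with Benjamini-Hochberg adjustment over all rows and a threshold of 0.05. Sums, ratios, exact intervals and the sign-flip test used Python 3.11.15 and scipy 1.17.1. Limma and voom with median scaling were run on simulated reads with the same dispersion for all rows and no overall shift between groups. The real libraries differ in both, so no conclusion about these data is drawn from the simulation. Fits with the block or without 1 library were not simulated. Alternatives changed the pseudocount, filter, scaling, variance model, replicate block, test (limma voom on rows with at least 60 reads) and libraries. Voom with the block or without 1 library was added after seeing the data. In these voom fits a larger SE could go with a smaller adjusted p. Pip4k2c had an SE of 0.33 with the block (voom adjusted p = 0.00231) and 0.22 without the block (voom adjusted p = 0.00685). The adjusted p-values of these fits are therefore not read as strength of a difference. The members and lists were chosen with earlier results of these data known. Some genes of these lists are not reported here, and the lists are counted without them. Named were Kcnq3, Kcnq5 and the whole Kcne list, in the other lists every called gene and the 3 with the smallest p among those reported with at least 60 reads, Malat1 and Rps6, and the 5 nearest in pattern to Kcnq3 and Kcnq5. Ocrl, Pi4ka, Pip5k1c, Ank3, Gm26580 and the markers called by voom were named after their values were seen. Rps6, which encodes the precipitated protein, had a log2 difference of 0.45 ± 0.21 (SE, limma adjusted p = 0.445).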

Additional observations from a re-analysis of the deposited data

How the results depend on the processing

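The Kcnq3 difference of -1.34 moved by more than the spread between replicates to -1.10 with a pseudocount of 1, -0.97 as deposited and -0.96 by voom with library totals. Of the other pathway genes, 0 were higher by limma, 1 without the variance trend and 4 by voom with library totals; 1 was lower, and 0 with a pseudocount of 1, as deposited, with quantile normalization, with the length trend removed, without the variance trend and with the replicate block (4 to 6 lower with unadjusted p under 0.05), 2 by voom with median scaling and 5 by voom with the block. Without each library in turn there were 0 in both directions (0 to 7 higher and 6 to 8 lower unadjusted). Of all rows tested, 36 were higher, and 20 without a filter, 14 with at least 60 reads, 111 without the variance trend, 0 with the block, 272 by voom with library totals, 13 by voom with the block and 0 to 78 without each library. Lower were 163 rows, and 87 with a pseudocount of 1, 87 without a filter, 414 with at least 60 reads, 30 as deposited, 73 with quantile normalization, 81 with the length trend removed, 35 without the variance trend, 0 with the block, 645 by voom with median scaling, 253 with library totals, 718 with the block and 8 to 219 without each library. With the block by limma 403 rows were higher and 1288 lower at an unadjusted p under 0.05. Same-numbered Con and CS libraries did not deviate together (r = -0.40, -0.18 and -0.06 over rows with at least 60 reads). The labels do not say whether the numbers pair the libraries, and so few correlations of centred values cannot settle it. With the block by limma, which cannot move the estimate in this balanced design, the SE of Kcnq3 at -1.34 was 0.34 in place of 0.23. Without each library Kcnq3 stayed above Kcnq5 in level (1.10 to 1.46), but 5 libraries cannot give an exact permutation p below 0.0625. Genes not called changed sign as follows: Kcne2 to -0.081 with a pseudocount of 1 and -0.79 without Con library 1 (-0.79 to 1.31 over the libraries left out in turn); Chrm1 to 0.016 as deposited and 0.042 by voom with library totals; Grm5 to -0.066 without Con library 3 (-0.066 to 0.38 over the libraries) and -0.043 by voom without it; Gnaq to 0.0029 by voom with library totals; Rest to -0.28 by voom with the block and -0.33 (limma, -0.33 to 1.63 over the libraries) and -0.32 (voom) without Con library 3; Malat1 from -0.06 to 0.043 with a pseudocount of 1, 0.31 as deposited and by voom with library totals, 0.61 with quantile normalization, 0.021 with the length trend removed, -0.20 to 0.028 over the libraries, above 0 without Con library 1, CS library 1 and CS library 2, and 0.051 by voom without CS library 2. The causes were not tested. Reads were few for Kcnq5 and the Kcne genes.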
